A study of Mus musculus with 11 samples.

Results

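The granzymes and their granule partners were compared between CD4 T cells of the mouse transduced with FoxP3, with either of 2 mutant forms of it, or with an empty vector. The set was every probe set of the array whose annotation names exactly 1 gene among Gzma, Gzmb, Gzmc, Gzmk, Gzmm, Prf1, Srgn and Lamp1. It held 9 probe sets of 8 genes, of 45037 probe sets and 18193 genes in all: 2 probe sets for Prf1 and 1 for each other gene. The genes were listed by name, with earlier results from the same arrays known.

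FoxP3 is the forkhead transcription factor of regulatory T cells, and the substitutions A384T and R397W, both in its DNA-binding forkhead domain, are known from the human autoimmune disease IPEX. Naive CD4 T cells (CD25-, CD45RBhigh) of BALB/cA mice, from spleen and lymph nodes, were stimulated through CD3 with 0.5 µg/ml of anti-CD3e, with IL-2 at 10 ng/ml and with splenocytes free of T cells that had received 20 Gy. They received retrovirus made with the MIGR1 vector 24 h later, were kept in IL-2, and were sorted as GFP(high) CD4+ cells on day 7. Total RNA went onto 1 Affymetrix array per sample, which gave 11 arrays. The groups were cells with WT FoxP3 (3 arrays), with A384T FoxP3 (3), with R397W FoxP3 (2) and mock-transduced cells with MIGR1 alone (3). All 4 groups shared the strain, the activation, the IL-2 and the sort, FoxP3 came from the viral vector in cells that had started without CD25, and the age of the mice is not given. Whether the arrays of 1 group stand for different cultures or mice is not given in the labels, so the p-values cover the spread among these arrays alone, and that spread may be technical.

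Each deposited value was a log2 value set so that the median of the 3 mock arrays was 0 at its probe set. Differences between groups could therefore be read, but not how strongly a gene was expressed, nor whether a marker was absent, and the labelled CD4 T cell identity could not be checked by levels. The array medians over all probe sets lay between -0.02 and 0.0022. The single Foxp3 probe set ranged from -0.39 to 0.33 over the 11 arrays and was called in none of the 6 contrasts between groups. It thus gave no check of the vector-borne FoxP3, and equal amounts of the 3 forms were not shown. Arrays that share a number in the labels deviated together, so fits with the array number as a block stand beside the results they change. Called below means an adjusted p under 0.05 in limma, adjusted by Benjamini-Hochberg over all 45037 probe sets. Differences are log2 differences with standard errors, and because RNA came from bulk samples, fewer cells of a type and less RNA per cell cannot be told apart.

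Cytotoxic lymphocytes store granzymes, a family of serine proteases, in secretory granules with perforin, which forms pores in the target cell membrane. Serglycin, a proteoglycan with negatively charged side chains, packs these proteins in the granule, and LAMP1 (CD107a) lies in the membrane of lysosomes and of such granules and reaches the cell surface when they fuse. Granzyme B cleaves its substrates after aspartate and triggers apoptosis of the target cell. Regulatory T cells are known to use granzyme B and perforin against other lymphocytes in some settings, and activated CD4 effector T cells can make granzymes as well.

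Gzmb and Gzmc are neighbours at one end of the granzyme cluster of mouse chromosome 14, in the order Gzme, Gzmd, Gzmg, Gzmn, Gzmf, Gzmc and Gzmb in RefSeq. RefSeq held a promoter for all 8 genes. The windows of Gzmb and Gzmc are shown because these were the granzymes with large differences, and that of Gzmd because it is close in sequence to Gzmc whereas its probe sets showed no called difference. Each runs from 250 bases before to 50 bases after the annotated start (GRCm38.p6, minus strand): Gzmb at chr14:56262285-56262584, Gzmc at chr14:56234608-56234907 and Gzmd at chr14:56132544-56132843. Capitals mark matches to the motifs named after the sequences.
Gzmb: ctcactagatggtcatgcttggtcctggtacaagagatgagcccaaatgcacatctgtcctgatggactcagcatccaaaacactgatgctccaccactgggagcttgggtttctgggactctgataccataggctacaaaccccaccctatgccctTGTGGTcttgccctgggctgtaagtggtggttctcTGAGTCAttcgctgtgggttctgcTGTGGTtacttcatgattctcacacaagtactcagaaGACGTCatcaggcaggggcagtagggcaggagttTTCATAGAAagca
Gzmc: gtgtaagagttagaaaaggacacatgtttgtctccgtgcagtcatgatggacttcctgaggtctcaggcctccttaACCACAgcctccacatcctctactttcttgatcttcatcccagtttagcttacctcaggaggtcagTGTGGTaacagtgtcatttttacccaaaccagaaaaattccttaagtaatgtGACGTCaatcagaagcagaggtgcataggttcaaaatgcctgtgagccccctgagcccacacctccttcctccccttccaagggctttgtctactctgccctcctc
Gzmd: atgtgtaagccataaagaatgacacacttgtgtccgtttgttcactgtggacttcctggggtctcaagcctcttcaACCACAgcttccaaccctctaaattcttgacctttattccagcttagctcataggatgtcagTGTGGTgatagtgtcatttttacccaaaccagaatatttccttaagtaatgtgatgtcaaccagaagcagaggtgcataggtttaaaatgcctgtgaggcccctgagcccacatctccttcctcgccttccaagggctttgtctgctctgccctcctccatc

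The Gzmc and Gzmd windows were identical at 82.7% of aligned positions, against 44.6% between Gzmb and Gzmc. The motifs were searched on both strands as letters: GTAAACA (forkhead), TTCNNNGAA (STAT), TGANTCA (AP-1), TGTGGT (RUNX) and GACGTC (the core of a cyclic AMP response element, added after the sequences had been read). Among 32851 promoters of the same length, GTAAACA was found in 3.65%, TTCNNNGAA in 8.3%, TGANTCA in 7.81%, TGTGGT in 16.8% and GACGTC in 4.4%. The Gzmb window held TGTGGT at -93 and -34, TGANTCA at -58, GACGTC at 4 and TTCNNNGAA at 38, counted from the start. The Gzmc window held TGTGGT at -108, its reverse complement at -174, and GACGTC at -56. The Gzmd window held TGTGGT at -112 and its reverse complement at -174, but not GACGTC, which Gzmf had at -81 and Gzmg at -76. None of the 3 printed windows held GTAAACA. Such matches describe the sequences and do not show binding.

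Gzmc, a granzyme of the mouse that is best known from strongly activated lymphocytes, showed the largest differences of the 8 genes. Its values were 4.75, 4.89 and 4.45 on WT arrays 1, 2 and 3, and 4.66, 3.80 and 3.82 on A384T arrays 1, 2 and 3. They were 0.20 and 0.27 on R397W arrays 1 and 2, against -0.06, 0.28 and 0 on mock arrays 1, 2 and 3. All 6 arrays with WT or A384T FoxP3 thus lay far above all 5 others, and the R397W arrays lay within the mock range. Gzmc was 4.63 ± 0.22 higher in WT than in mock cells (24.7-fold, adjusted p = 1.19e-05) and 4.02 ± 0.22 higher in A384T than in mock cells (16.2-fold, adjusted p = 3.47e-05). In R397W cells the difference from mock cells was 0.16 ± 0.25, with a 95% interval of -0.38 to 0.71.

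Gzmb, which encodes granzyme B, was also higher with WT and A384T FoxP3, but its values depended on the array number. They were 3.48, 3.21 and 1.81 on WT arrays 1, 2 and 3 and 3.26, 3.33 and 1.26 on A384T arrays 1, 2 and 3. The R397W arrays 1 and 2 had 0.83 and 1.16, against 0, 0.27 and -1.66 on mock arrays 1, 2 and 3. Array 3 was the lowest of its group in all 3 groups that have one, and its difference from the mean of arrays 1 and 2 was -1.54 in WT, -2.04 in A384T and -1.80 in mock cells. R397W has no array 3. Within array numbers, WT cells lay above mock cells by 3.48, 2.93 and 3.47, and A384T cells by 3.26, 3.05 and 2.92. What differs between the array numbers is not stated in the labels.

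Without the block, Gzmb was 3.30 ± 0.66 higher in WT than in mock cells (9.83-fold, adjusted p = 0.0285) and 3.08 ± 0.66 higher in A384T than in mock cells (8.44-fold, adjusted p = 0.045). Once the block was fitted, the same differences had a standard error of 0.14 and adjusted p of 8.9e-07 for WT and 1.22e-06 for A384T. The unblocked calls were fragile to single arrays. With any of 4 arrays left out, the WT difference was no longer called: WT 1 (adjusted p = 0.111), WT 2 (0.118), mock 1 (0.0579) or mock 3 (0.0934). The A384T call held in 2 of the 11 fits that each left out 1 array, without WT 3 (adjusted p = 0.0411) and without A384T 3 (0.0145), and the adjusted p reached 0.162 without A384T 1.

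For R397W, the Gzmb difference from mock cells was 1.46 ± 0.74 without the block (unadjusted p = 0.0779), where mock array 3 has no R397W partner. It was 0.86 ± 0.16 with the block (1.82-fold, unadjusted p = 0.000275, adjusted p = 1.00), and 0.83 and 0.88 within array numbers 1 and 2. Both R397W arrays were therefore above both mock arrays of the same numbers, but the contrast was not called.

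**Figure D1:**
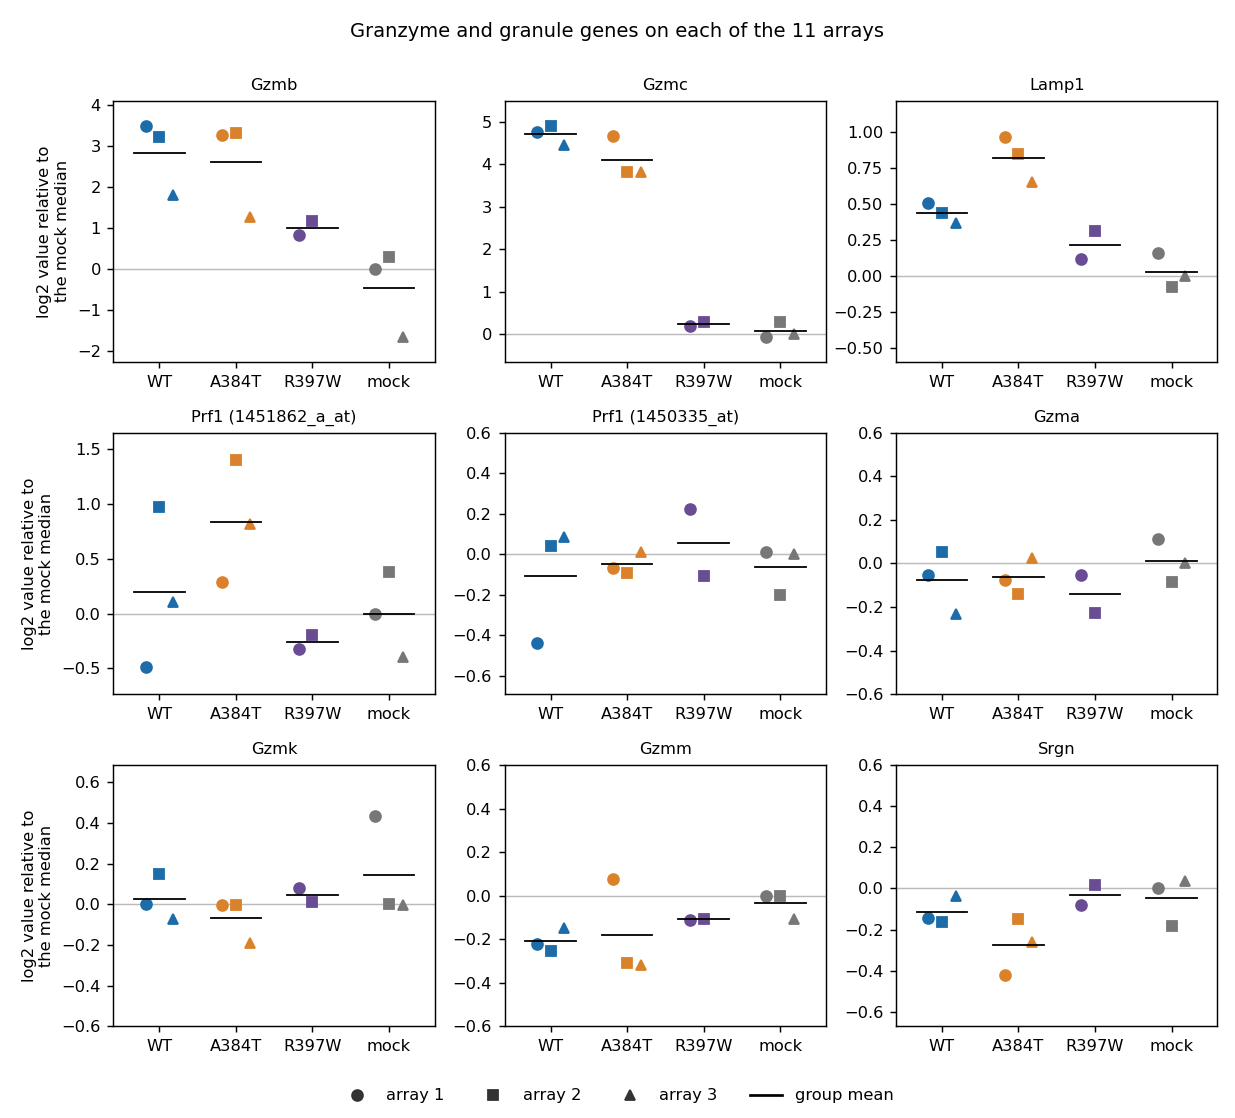
Each panel plots 1 of the 9 probe sets, with the log2 value relative to the mock median on the vertical axis and the groups WT, A384T, R397W and mock on the horizontal axis. Points are single arrays, with a marker for each array number, and bars are group means. Gzmc and Gzmb stand apart in WT and A384T cells, and array 3 of Gzmb is the lowest of its group.

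The other granzymes of the set showed no called difference in any of the 6 contrasts. Gzma, a granzyme with tryptase activity, ranged from -0.23 to 0.05 in WT, from -0.14 to 0.02 in A384T and from -0.23 to -0.05 in R397W cells, against -0.08 to 0.11 in mock cells. Gzmk, its neighbour on chromosome 13, ranged from -0.08 to 0.15 in WT, from -0.19 to -0.0037 in A384T and from 0.01 to 0.08 in R397W cells, against -0.0037 to 0.43 in mock cells. Gzmm, which lies on chromosome 10 and cleaves after methionine or leucine, ranged from -0.25 to -0.15 in WT, from -0.32 to 0.08 in A384T cells and was -0.11 on both R397W arrays, against -0.11 to 0 in mock cells. The 95% intervals of their differences between WT and mock cells were -0.32 to 0.15 for Gzma, -0.41 to 0.17 for Gzmk and -0.43 to 0.08 for Gzmm.

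The remaining granzymes of the chromosome 14 cluster are outside the set. Gzmd, Gzme, Gzmf, Gzmg and Gzmn had 6 probe sets, with values between -0.39 and 0.39 on the 11 arrays and differences between -0.21 and 0.18 over all 6 contrasts. None was called, and the lowest adjusted p was 0.71 without and 0.412 with the block. Gzmc and Gzmb, the last 2 genes in the order, thus had large differences beside 5 neighbours that did not. Probe sets whose names end in x_at, which Gzmd and Gzme have, can bind related transcripts, so these close copies are less certain.

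**Figure D2:**
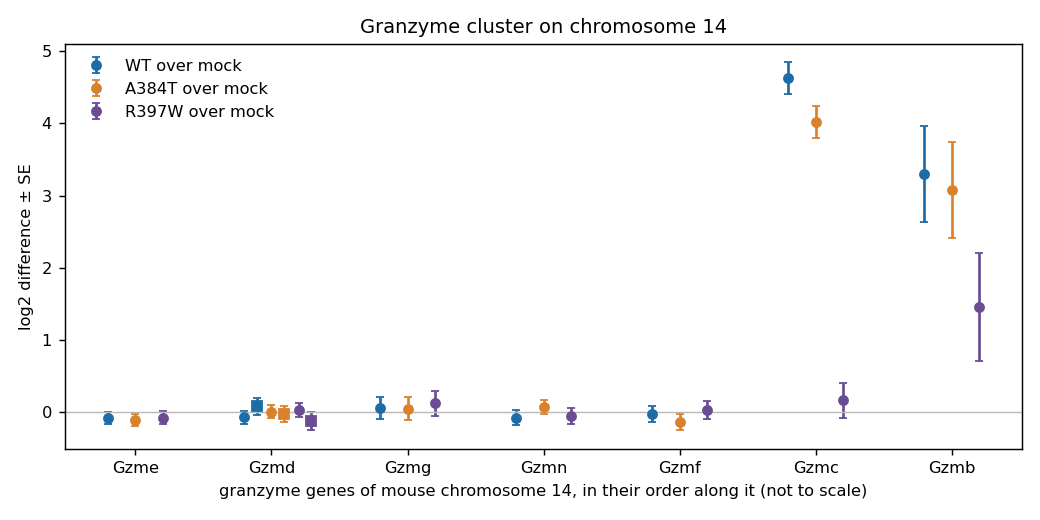
The granzyme genes of chromosome 14 are set in their order along the horizontal axis, not to scale, with the log2 difference from mock cells and its standard error on the vertical axis for WT, A384T and R397W. Squares are the second probe set of Gzmd. Gzmc and Gzmb rise to 4.63 and 3.30 in WT cells, and the other 5 genes stay between -0.14 and 0.12.

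Among the granule partners, Lamp1 was the gene with called differences in the unblocked fit. Srgn, which encodes the serglycin core protein, ranged from -0.16 to -0.04 in WT, from -0.42 to -0.15 in A384T and from -0.08 to 0.02 in R397W cells, against -0.18 to 0.04 in mock cells. Its difference was -0.07 ± 0.10 between WT and mock cells and -0.23 ± 0.10 between A384T and mock cells (adjusted p = 0.436), and it was called in no contrast.

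Prf1, which encodes perforin, had 2 probe sets that disagreed. The one whose name ends in _a_at had -0.48, 0.97 and 0.11 on WT arrays 1, 2 and 3, 0.29, 1.40 and 0.81 on A384T arrays 1, 2 and 3, and -0.32 and -0.20 on R397W arrays 1 and 2. The mock arrays 1, 2 and 3 had 0, 0.38 and -0.40, so that only R397W and A384T did not overlap. The difference was 0.84 ± 0.37 between A384T and mock cells (adjusted p = 0.42, 0.0506 with the block) and 0.20 ± 0.37 between WT and mock cells (adjusted p = 0.94). The other stayed between -0.44 and 0.23 on all arrays and was called in no contrast, with or without the block.

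Lamp1 was higher in A384T cells, by a small amount. It had 0.50, 0.44 and 0.37 on WT arrays 1, 2 and 3 and 0.97, 0.85 and 0.65 on A384T arrays 1, 2 and 3. The R397W arrays 1 and 2 had 0.12 and 0.31, against 0.16, -0.08 and 0 on mock arrays 1, 2 and 3. The 3 A384T arrays lay above all others, and the 3 WT arrays above all R397W and mock arrays. The difference was 0.80 ± 0.11 between A384T and mock cells (1.74-fold, adjusted p = 0.00469). It was 0.41 ± 0.11 between WT and mock cells, not called without the block (adjusted p = 0.109) but called with it (0.0415). Between R397W and mock cells it was 0.19 ± 0.13. The A384T call was lost with a trended robust variance prior and in the fit without arrays 1.

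Counted over the set, 2 of 9 probe sets were called in WT over mock (Gzmb and Gzmc), where 2.66% of all probe sets were called. Against the same mock arrays, 3 of 9 were called for A384T (Gzmb, Gzmc and Lamp1), and 2.17% of all. All of these were higher than in mock cells. For R397W, 0 of 9 were called against mock cells, as were 0% of all 45037 probe sets. Of these, 829 (1.84%) had an unadjusted p under 0.05, none of the 9 among them. With the block, 3 of 9 were called in WT over mock (7.63% of all), 3 of 9 with A384T (7.33%) and 0 with R397W (0%). The 3 contrasts share the mock arrays and are not independent.

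**Figure D3:**
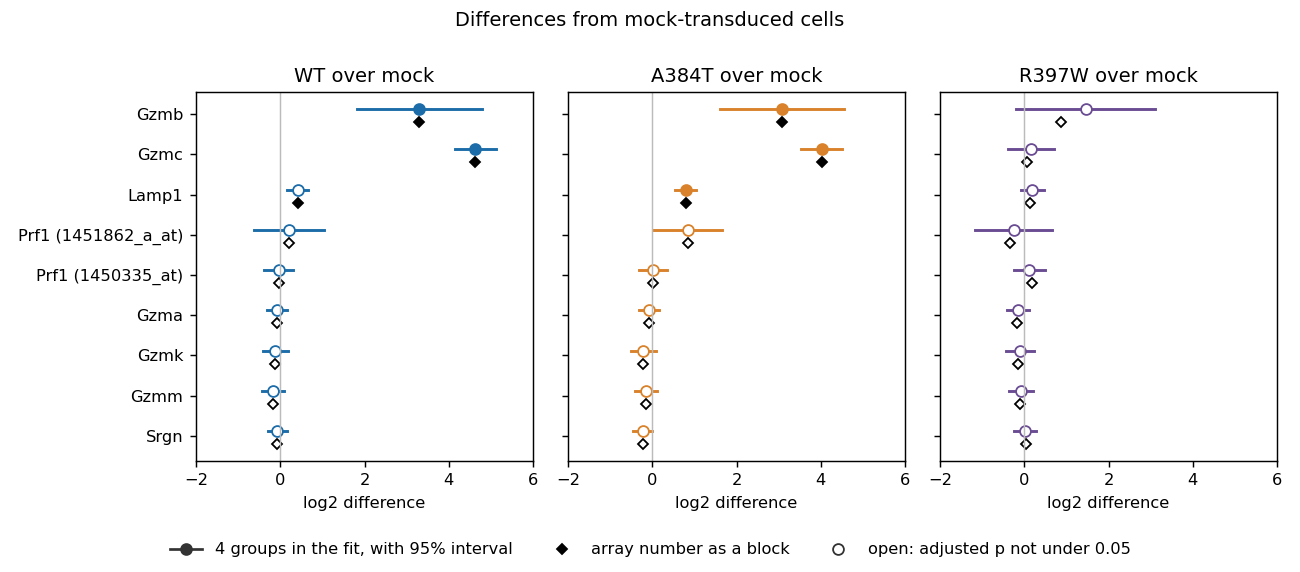
Horizontal axes give the log2 difference from mock cells of each probe set in WT, A384T and R397W cells, with 95% intervals, and filled points are called. Diamonds are the blocked values, fitted by array number. The interval of Gzmc in R397W cells, -0.38 to 0.71, does not reach those of WT and A384T cells.

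Between A384T and WT cells, 0 of the 9 probe sets were called, where 0.102% of all were, and 0 with the block (0.515% of all). Gzmc was lower in each A384T array than in the WT array of the same number, with differences of -0.09, -1.09 and -0.63. The difference was -0.61 ± 0.22, with a 95% interval of -1.09 to -0.12 (unadjusted p = 0.0198, adjusted p = 1.00, 0.339 with the block). For Lamp1 the difference was 0.39 ± 0.11, with an interval of 0.14 to 0.64 (unadjusted p = 0.00614, adjusted p = 0.643). For Gzmb it was -0.22 ± 0.66 with an interval of -1.70 to 1.26, and that interval allows more than 2-fold in either direction. These p-values do not show that the A384T and WT forms act alike on these genes.

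Between R397W and WT cells, 1 of 9 probe sets was called, against 1.75% of all, and with the block 2 of 9, against 5.78%. Gzmc was lower in R397W than in WT cells, with a difference of -4.46 ± 0.25 (adjusted p = 4.1e-05). For Gzmb the difference was -1.84 ± 0.74 without the block (adjusted p = 0.417) and -2.44 ± 0.16 with it (5.41-fold, adjusted p = 1.7e-05), and 0.03, with its sign turned and not called, after quantile normalization of the centred values. Within array numbers 1 and 2 the Gzmb difference between R397W and WT cells was -2.65 and -2.05.

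Between R397W and A384T cells, 2 of 9 probe sets were called, against 1.47% of all, and with the block 4 of 9, against 5.7%. Gzmc was lower in R397W cells, with a difference of -3.86 ± 0.25 (adjusted p = 0.000107). Lamp1 was lower in R397W cells as well, by a difference of -0.61 ± 0.13 (1.52-fold, adjusted p = 0.0462, 0.0111 with the block). That unblocked call held in 1 of the 11 fits without 1 array, the one without A384T 3 (adjusted p = 0.0342), and reached 0.326 without R397W 1. In any fit without R397W 1 or R397W 2 that group is 1 array, assumed to vary like the arrays of the other groups. For Gzmb the difference was -1.62 ± 0.74 without the block (adjusted p = 0.504), -2.22 ± 0.16 with it (adjusted p = 3.71e-05) and 0.09, not called, after quantile normalization. The Prf1 probe set ending in _a_at differed by -1.09 ± 0.41 without the block (adjusted p = 0.355) and by -1.18 ± 0.26 with it (adjusted p = 0.0257), and the other Prf1 probe set by 0.11 ± 0.17 (adjusted p = 0.914).

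Genes that act with the granule proteins were taken as lists, each gene through its probe set of largest standard deviation over the arrays. Of all genes, 3.53% were called at this level for WT and 2.96% for A384T against mock cells (10% and 9.86% with the block). The share was 2.42% for R397W against WT and 2.13% for R397W against A384T (7.81% and 7.75% with the block). Without the block, 0 genes of any list were called in R397W over mock, where 0% of all genes were called with or without it, and 0 in A384T over WT, where 0.165% were (0.753% with the block). The counts are descriptions, with no test of a list.

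Intracellular inhibitors protect cytotoxic cells from granzymes that leak from the granules. Of 6 genes measured for inhibitors of granzymes or of other proteases, 2 were called higher in WT over mock and 1 higher in A384T over mock. In R397W over WT 2 were called lower, and in none of these contrasts was a gene called the other way. The list's median difference was 0.25 in WT and 0.39 in A384T over mock, against -0.02 and -0.01 over all genes. With the block 3 were called higher in each of these contrasts with mock cells and 2 lower in R397W over A384T. Of the calls in R397W over WT, that of Serpinb9 held in 4 and that of Serpinb6b in 7 of the 11 fits without 1 array, with adjusted p up to 0.306 without R397W 1 for Serpinb9 and 0.181 without R397W 2 for Serpinb6b.

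Serpinb9, the mouse inhibitor of granzyme B, had 1.34, 1.43 and 1.14 on WT arrays 1, 2 and 3, 1.38, 1.24 and 0.98 on A384T arrays 1, 2 and 3 and 0.18 and 0.54 on R397W arrays 1 and 2, against 0, -0.13 and 0.44 on mock arrays 1, 2 and 3. The WT and A384T arrays lay above all others. The difference from mock cells was 1.20 ± 0.17 in WT (adjusted p = 0.00457) and 1.10 ± 0.17 in A384T (adjusted p = 0.00849), and its other probe set gave 0.86 and 0.56. Serpinb6b, an inhibitor of granzyme A in the mouse, was 1.50 ± 0.20 higher in WT than in mock cells (adjusted p = 0.003). In A384T it differed from mock cells by 0.74 ± 0.20 (adjusted p = 0.112, 0.0204 with the block).

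Among 11 genes for granzyme processing and other granule proteins, 2 were called higher and 1 lower in WT over mock, and 1 higher and 1 lower in A384T over mock. With the block 2 were called higher and 2 lower in WT over mock, and 1 and 1 in A384T over mock. Cst7, called lower in WT over mock with the block alone, differed by -0.56 ± 0.18 (adjusted p = 0.183, 0.0216 with the block). Ctsl, the lysosomal protease cathepsin L, was 2.47 ± 0.23 higher in WT (adjusted p = 0.000431) and 2.42 ± 0.23 higher in A384T than in mock cells (adjusted p = 0.000502). Between R397W and WT cells it differed by -1.86 ± 0.26 (adjusted p = 0.00588), a call lost without R397W 2 (0.0716). Its second probe set gave 0.13 and 0.15 for WT and A384T over mock and was not called. Ctsd, cathepsin D, was lower than in mock cells. The difference was -0.79 ± 0.13 in WT (adjusted p = 0.0103) and -0.91 ± 0.13 in A384T (adjusted p = 0.00564). In R397W over A384T, Ctsd was called higher (0.76 ± 0.15) and Ctsl lower (-1.81 ± 0.26), with or without the block. That Ctsd call held in 4 of the 11 fits without 1 array. The losses included the fits without A384T 1 or A384T 2 (adjusted p = 0.104 and 0.0928). Without R397W 2 the Ctsd difference was 0.64. The Ctsl call in R397W over A384T held in 10 of the 11 fits, and its difference was -1.49 without R397W 2. Lamp2, the close relative of Lamp1, was 0.91 ± 0.16 higher in WT than in mock cells (adjusted p = 0.0129). With mock 1 or mock 2 left out it was not called (adjusted p = 0.0515 and 0.0502), and its other 3 probe sets gave 0.46 to 0.57, not called.

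Of 21 genes for granule transport and exocytosis, 1 was called higher in each of WT over mock and A384T over mock, and 1 lower in R397W over WT. It was Snap23 in each case, a membrane fusion protein of the SNARE family. With the block 3 were called higher and 1 lower in WT over mock, and 2 higher in A384T over mock. Snap23 had 1.96, 2.05 and 1.40 on WT arrays 1, 2 and 3, 1.34, 1.02 and 0.60 on A384T arrays 1, 2 and 3 and 0.01 and -0.04 on R397W arrays 1 and 2, against 0.07, 0 and -0.40 on mock arrays 1, 2 and 3. Its 3 WT arrays lay above all A384T arrays, and these above all R397W and mock arrays. The difference from mock cells was 1.92 ± 0.22 in WT (adjusted p = 0.00124) and 1.10 ± 0.22 in A384T (adjusted p = 0.0317). The A384T call was lost in 7 of the 11 fits without 1 array, with an adjusted p of 0.119 without mock 3. The call in R397W over WT was lost without R397W 1 or R397W 2 (adjusted p = 0.0538 and 0.0548). The other 2 Snap23 probe sets gave 1.68 and 0.94 in WT over mock, both called, and 1.02 and 0.53 in A384T over mock, of which the first was called. Between A384T and WT cells Snap23 differed by -0.82 (adjusted p = 0.534, 0.0057 with the block), the 1 gene of this list that was called there with the block.

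**Figure D4:**
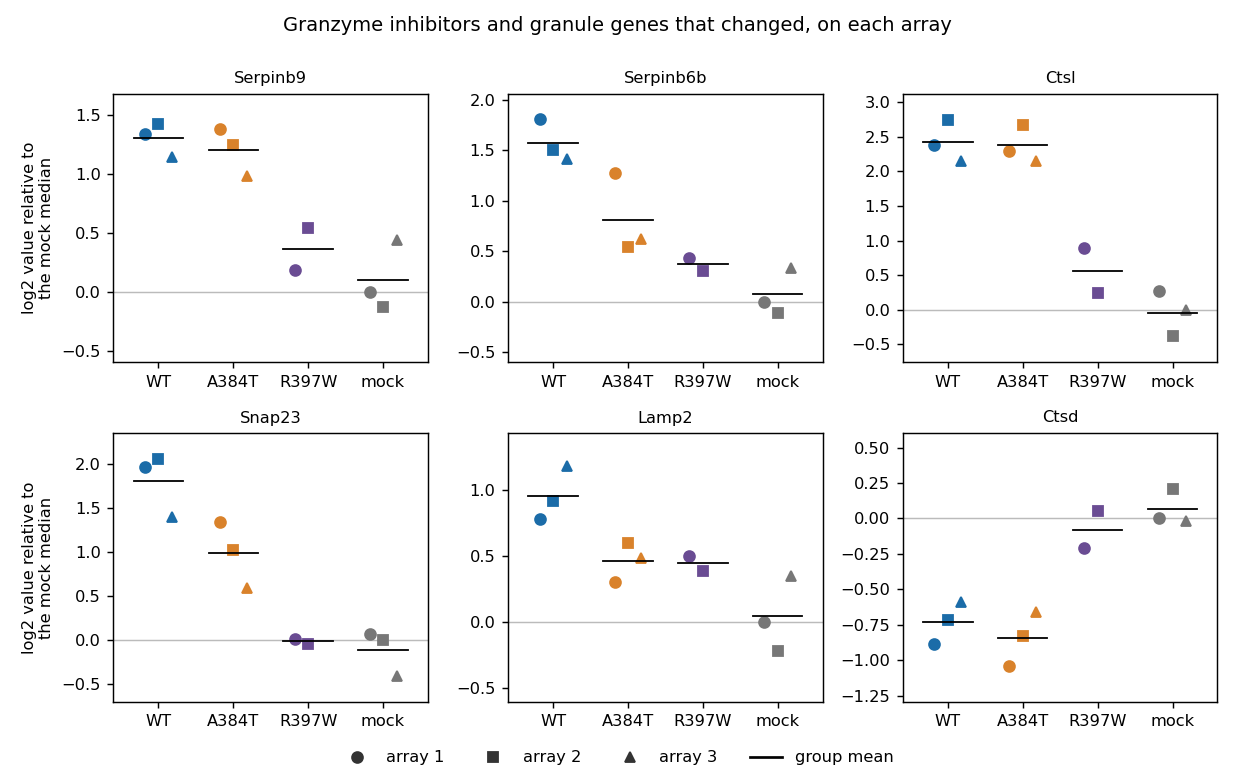
Panels plot genes of the lists array by array, with the log2 value relative to the mock median on the vertical axis and WT, A384T, R397W and mock cells from left to right. Points are arrays, marked by array number, and bars are group means. Serpinb9 lies at 0.98 or more on every WT and A384T array, and at 0.54 or less on every R397W and mock array.

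Killing can also run through surface ligands. Of 10 death ligand and receptor genes, 3 were called higher and 1 lower in both WT over mock and A384T over mock, the same 4 genes, and with the block 5 and 1 in WT over mock and 4 and 2 in A384T over mock. Lta, which encodes lymphotoxin alpha, was 5.03 ± 0.54 higher in WT (adjusted p = 0.00086) and 5.68 ± 0.54 higher in A384T than in mock cells (adjusted p = 0.000502). Tnf was 3.06 ± 0.44 and 2.82 ± 0.44 higher (adjusted p = 0.00449 and 0.00787), and Ltb, the partner of Lta in the membrane-bound complex, was the other gene called higher, by 0.86 ± 0.16 in WT and 1.10 ± 0.16 in A384T cells (adjusted p = 0.0214 and 0.00616). Its WT call was lost without mock 1, mock 2, WT 1 or WT 2 (adjusted p up to 0.0891). Fasl, the Fas ligand, which kills without granzymes, was lower in WT than in mock cells, with a difference of -1.43 ± 0.19 (adjusted p = 0.00301). In A384T the difference was -0.88 ± 0.19 (adjusted p = 0.0464), a call that held in 1 of the 11 fits without 1 array and had an adjusted p of 0.148 without A384T 1. The other Fasl probe set gave -0.89 in WT (adjusted p = 0.102, 0.0271 with the block) and -0.46 in A384T (adjusted p = 0.532), not called without the block. Lta, Tnf and Ltb were called lower in R397W than in WT and in A384T cells. Lta differed by -4.86 ± 0.60 and -5.51 ± 0.60, and Tnf by -3.15 ± 0.49 and -2.91 ± 0.49. Fasl was called higher in R397W over WT (1.15 ± 0.21, other probe set 0.46, not called). With the block 4 genes were lower and 1 higher in R397W over WT. The Lta calls held in all 11 fits without 1 array, the Tnf calls in 9 each and the Fasl call in 7.

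Of 18 genes listed as regulators of cytotoxic genes, 3 were called higher in each of WT and A384T over mock. The same 3 were called lower in R397W over WT: Irf4, Bhlhe40 and Ikzf2. With the block, 6 were called higher and 1 lower in WT over mock, 4 and 2 in A384T over mock, and 6 lower in R397W over WT. Irf4, a factor of activated lymphocytes, was 2.24 ± 0.41 higher in WT (adjusted p = 0.017) and 2.61 ± 0.41 higher in A384T than in mock cells (adjusted p = 0.00844). Its WT call was lost without mock 1, 2 or 3 or WT 1 (adjusted p up to 0.0671), and its other probe set gave 0.19 and 0.15. In R397W over WT the Irf4 call held in 7 of the 11 fits without 1 array (adjusted p up to 0.21, without R397W 2). Those of Bhlhe40 and Ikzf2 were lost in 1 fit each, Bhlhe40 without R397W 1 (0.123) and Ikzf2 without R397W 2 (0.0655), and that of Bhlhe40 in A384T over mock without A384T 2 (0.0522). Ikzf2, which encodes Helios, was 1.95 ± 0.20 higher in WT (adjusted p = 0.000609) and 1.39 ± 0.20 higher in A384T than in mock cells (adjusted p = 0.00471). Its other 2 probe sets were not called in either contrast: 1 gave 1.11 in WT and 0.80 in A384T (adjusted p = 0.124 and 0.332), and 1 gave 0.04 and 0.24.

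Markers of other cells that can carry granzymes were read beside these results. Of 11 markers of CD8, NK and gamma-delta T cells, none was called higher in WT or A384T over mock, and 1 was called lower. That 1 was Klrd1, which encodes the NK receptor chain CD94, with a difference of -3.28 ± 0.29 in WT (adjusted p = 0.000245) and -3.19 ± 0.29 in A384T cells (adjusted p = 0.000345). The list's median per array ran from -0.06 to 0.01 in WT, from -0.0043 to 0.10 in A384T and from 0.01 to 0.08 in R397W cells, and was 0 on every mock array. Of 11 markers of mast cells and basophils and 10 of granulocytes, 0 were called in any of the 6 contrasts, with or without the block. Their medians per array ran from -0.09 to 0.13 and from -0.17 to -0.01 in WT cells. Of 12 macrophage and dendritic cell markers, Fcgr3 was called lower in WT over mock, and Fcgr3 and Adgre1 in A384T over mock, where the Adgre1 call was lost without A384T 2 (adjusted p = 0.0604). Of 8 B cell markers, Ighm differed by 0.70 ± 0.17 in WT over mock (adjusted p = 0.0608, 0.0147 with the block). In A384T over mock Ighm was called higher (0.92 ± 0.17, adjusted p = 0.0188). That call was lost without A384T 1 or 2 or mock 1 or 2 (adjusted p up to 0.0826), and 1 other Ighm probe set was called there as well (0.65, adjusted p = 0.0491, 0.0122 with the block). The mean of all 11 Ighm probe sets differed by 0.08. Of 9 CD4 T cell markers, Cd5 was called lower in WT over mock (-0.47, a call held in 2 of the 11 fits without 1 array). In A384T over mock Cd5 differed by -0.46 (adjusted p = 0.0521, 0.0266 with the block). Cd28 was called lower in A384T over mock (-0.96, with -0.47 at its other probe set, not called without the block). With the block 1 CD4 T cell marker was called higher and 1 lower in WT over mock, and 0 and 2 in A384T over mock. The part of any of these cells in the granzyme values was not tested.

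The genes most like Gzmb and Gzmc were those with the lowest mean absolute difference in value over the 11 arrays, among 18192 other genes. For Gzmc they were Cyp4f18 (0.356), Drc1 (0.378), Tnfrsf9 (0.443), Enah (0.483) and Tgm2 (0.484). For Gzmb they were Pigz (0.512), Bcl3 (0.535), Rgs1 (0.578), Mcm5 (0.604) and Mxd1 (0.609). Gzmb and Gzmc themselves differed by 1.21 on average, which placed Gzmc at rank 209 for Gzmb and Gzmb at rank 35 for Gzmc. The likeness measures values on these arrays, which share their groups and array numbers.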

How the data were processed

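The authors deposited 1 table of log2 values, 45101 probe sets by 11 arrays. RMA is the tool that the submitters' processing notes name, without a version. At each of the 45101 probe sets the 3 mock arrays had a median of exactly 0, a centring that no source used here describes. Nor is the log base given, and 2 was assumed because RMA gives it. No depth applies to arrays, and their number limits the precision. After 64 control probe sets were left out, each probe set was fitted with limma 3.58.1 (R 4.3.3) as 1 mean per group over all 11 arrays (7 residual degrees of freedom), and the 6 contrasts were tested with eBayes. The unblocked fit was also run on simulated data, with independent noise on each array and large changes added to the WT arrays alone. That simulation held no shared deviations by array number and no small changes, so it does not bear on either. Other steps used Python 3.11.15, pandas 2.3.3, Biopython 1.88 (promoter alignments) and matplotlib 3.10.9.

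Array titles carry numbers but state no pairing. The 15 same-number pairs had correlations of deviations from group means of 0.107 to 0.718. Pairs of different numbers were not examined. Deviations within a group cancel out, so the 15 values are not independent. The blocked p-values rest on taking the numbers as pairs. Symbols came from the platform annotation, and promoters from RefSeq (GRCm38.p6). Genes with several probe sets entered lists through the one of largest standard deviation, which favours larger changes. The members and lists were chosen with earlier results of these data known. Named were every member, up to 4 called genes per list and contrast (the text gives part of these), and the 5 genes most like Gzmb and Gzmc. Alternatives were the block, the variance prior, the groups fitted, the treatment of several probe sets, normalization, array weights, a filter on variation and left-out arrays.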

Additional observations from a re-analysis of the deposited data

How the results depend on the processing

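Gzmc kept its direction and its call under all 10 settings chosen at the outset, in all 11 fits without 1 array and the fit without arrays 3, in each of the 4 contrasts where it was called. Without R397W 1, R397W 2 or arrays 1, the R397W group was a single array assumed to vary like those of the other groups, so these fits carry no spread of R397W itself.
Of the 9 probe sets, the number called moved by more than 1.5 times as follows. With the replicate block R397W over A384T had 4 and R397W over WT had 2; the block changed no other count of the members by that much. It was 1 in A384T over mock and 1 in R397W over A384T with a trended robust prior, 1 in WT over mock and 1 in R397W over A384T when only the 2 groups compared were fitted, and again 1 and 1 in these contrasts after quantile normalization. It was 1 in R397W over A384T with the less variable 50% of probe sets left out, and without arrays 1 it was 1 for R397W over A384T and 1 each for WT and A384T over mock. In all of these settings with a count of 1, the probe set called was that of Gzmc. Without arrays 3, an alternative chosen after seeing the data, the count was 2 in R397W over WT. Leaving out 1 array in turn gave 1 to 2 for WT over mock, 2 to 3 for A384T over mock, 0 in all for R397W over mock and for A384T over WT, 1 in all for R397W over WT and 1 to 2 for R397W over A384T.

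Signs turned only for differences that were not called in the unblocked fit. Of these, the Gzmb differences of R397W from WT and from A384T cells were called with the block (adjusted p = 1.7e-05 and 3.71e-05). With the block, Gzmk in R397W over WT was -0.041. After quantile normalization, Gzmm in A384T over WT was -0.0016, and Gzmb was 0.090 for R397W over A384T and 0.034 for R397W over WT; this setting gives every array 1 distribution, although the centred values spread differently between arrays. With array weights, the Prf1 probe set not ending in _a_at was -0.0019 in A384T over mock and Gzmm was -0.0084 in A384T over WT. Without arrays 1, that Prf1 probe set was 0.16 in WT over mock, -0.0083 in R397W over mock, -0.10 in A384T over WT, -0.068 in R397W over A384T and -0.17 in R397W over WT, Gzmk was 0.039 in WT over mock, 0.014 in R397W over mock and -0.025 in R397W over WT, and Gzmm was -0.11 in A384T over WT. Without arrays 3, Gzma was -0.11 in A384T over WT and Gzmk -0.029 in R397W over WT.

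Leaving out 1 array in turn, Gzmk ran from -0.19 to 0.028 in WT over mock, from -0.17 to 0.049 in R397W over mock and from -0.029 to 0.083 in R397W over WT. That Prf1 probe set ran from -0.14 to 0.13 in WT over mock, -0.054 to 0.051 in A384T over mock, -0.045 to 0.29 in R397W over mock, -0.11 to 0.15 in A384T over WT, -0.059 to 0.27 in R397W over A384T and -0.0048 to 0.33 in R397W over WT, and the _a_at one from -0.18 to 0.54 in WT over mock. Gzma ran from -0.063 to 0.079 in A384T over WT, -0.16 to 0.0093 in R397W over A384T and -0.15 to 0.023 in R397W over WT, Gzmb from -0.73 to 0.46 and Gzmm from -0.10 to 0.093 in A384T over WT, and Srgn from -0.050 to 0.065 in R397W over mock. The cause of these turns was not tested. With 2 or 3 arrays per group and no levels, small differences and absence of expression could not be resolved.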

Other observations

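Serglycin carries chondroitin or heparin chains, which enzymes of the Golgi build and sulfate. Of 12 genes of this synthesis measured, 1 was called higher and 1 lower in WT over mock, and 1 higher in A384T over mock, and with the block 2 and 2 in WT over mock and 2 and 4 in A384T over mock. Chst15, a sulfotransferase that makes chondroitin sulfate E, was 0.99 ± 0.21 higher in WT (adjusted p = 0.0338) and 1.09 ± 0.21 higher in A384T than in mock cells (adjusted p = 0.0238). Its calls held in 5 and 7 of the 11 fits without 1 array, with adjusted p up to 0.134 and 0.0993, both without mock 2. Between R397W and WT cells Chst15 differed by -1.47 ± 0.23 (adjusted p = 0.0105), a call lost without R397W 2 (0.0824). The other Chst15 probe set gave 0.95 in WT and 0.76 in A384T over mock and was not called in any contrast. Srgn itself was called in no contrast.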
